A study of Mus musculus with 6 samples.

Results

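The lysosome is the acidic organelle in which cells break down proteins, lipids and sugars, and 39 genes of its enzymes, membrane proteins and proton pump are described here in the atherosclerotic mouse aorta. They were chosen by symbol, as named genes of lysosomal function, and make up 39 of the 17392 gene rows tested and 40 of the 36557 rows of the count table. The members were placed in 3 classes from background knowledge of where they are made, with earlier results of these data known. The macrophage-restricted class held 5 genes, the macrophage-enriched class 7 genes and the housekeeping class, which nearly all cells express, 27 genes. RNA had been sequenced from the aortic arch together with the thoracic aorta in 3 libraries from Apoe-/- MiR26b-/- mice (knockout) and 3 libraries from Apoe-/- control mice. All mice had received a high-fat diet (HFD) for 4 weeks and were flushed with PBS before the vessels were taken. Both groups therefore lacked apolipoprotein E, which clears cholesterol-rich lipoproteins, and mice without it form plaque on such a diet. Strain, sex, age and the design of the miR-26b allele are not given in the labels used here. Whether the libraries came from separate animals is not stated in the labels, so p-values cover only the spread among the libraries.

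Lysosomal hydrolases need an acidic lumen, which a membrane proton pump (the V-ATPase) maintains. The transcription factors Tfeb and Tfe3 bind E-box-like sites upstream of many lysosomal genes and can raise them together. Macrophages of the arterial wall use this machinery to degrade engulfed lipoproteins and dead cells, and they carry some lysosomal proteins that other vessel cells hardly make. The comparison addressed here is whether genes restricted to macrophages and lysosomal genes of all cells differed in the same way between knockout and control vessels.

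Deposited estimated counts summed to 51634139 to 54817547 per library. The count table held 0 rows for Mir26b, so its loss was not checked here; its host gene Ctdsp1 stood at 188 ± 6.84 CPM in knockout and 195 ± 3.65 CPM in control libraries (SD, n = 3 each; edgeR adjusted p = 0.555). Levels in CPM are relative to the size of each library, with TMM factors that correct for its composition. Apoe reads were found at 41.9 ± 3.27 CPM in knockout and 27.9 ± 1.90 CPM in control libraries (SD, n = 3 each; edgeR adjusted p = 0.0213). Knockout replicate 3 stood apart: on the first principal component, which held 61.9% of the variance, it lay at 0.97, with knockout replicates 1 and 2 at 47.0 and 55.7 and the controls between -45.3 and -25.4. In bulk tissue, fewer cells of a type and less RNA per cell cannot be told apart.

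The sequences that bear on the design are the deleted microRNA, the sites in member transcripts that match it, and upstream stretches of members with the E-box core bound by Tfeb. miR-26b-5p is encoded at chr1:74394324-74394344 (plus strand, GRCm38.p6) and shares its seed, bases 2 to 8, with miR-26a-5p, which other genes encode. The mature forms from RefSeq are shown with the seed in capitals, 5′ to 3′:
miR-26b-5p: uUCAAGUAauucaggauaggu
miR-26a-5p: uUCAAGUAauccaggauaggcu
Matches to the seed were searched in the longest annotated 3′ UTR of each gene (GENCODE mouse release 21), and 6 of the 39 members (15.4%) held one, against 18.3% of 21028 genes. Ctsl had the 1 full match with a following A, Lipa, Acp2 and Atp6v1a matched the seed alone, and Atp6v0d2 and Ctsh matched its first 6 bases (bases 2 to 7 of the miRNA), with an A after the match. Lipa held 3 sites, and the others 1 each. The sites of Ctsl and Atp6v0d2 and 1 of the 3 sites of Lipa are shown, since their fitted differences were above 2-fold (that of Ctsl was not called); capitals mark the matched bases:
Ctsl: tcaaaccatggTACTTGAAtcattgaggat
Lipa: tgcaggaatatTACTTGAtattggctcat
Atp6v0d2: cagtaaacagaACTTGAAacaaaatatgc
A match is a description of the letters, and binding was not measured.

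Promoter windows from 250 bases before to 50 after the transcription start (RefSeq, GRCm38.p6) were available for 32 of the 39 members. The letters TCACGTG, searched on both strands, were found in 8 of these 32 members (25%) and in 4.29% of 27025 genes. The shorter core CACGTG, which every TCACGTG contains, was found in 9 of the 32 (28.1%) and in 8.09% of genes. By class, TCACGTG was found in 0 of 4 macrophage-restricted members, in 1 of 6 macrophage-enriched members, Lgmn, and in 7 of 22 housekeeping members, which were Ctsa, Ctsd, Lamp1, Gla, Mcoln1, Atp6v0d1 and Atp6v1a. GAGGAAGT, a core bound by the myeloid factor PU.1, was found on either strand in Ctss, Ctsc, Gla and Gusb, 4 of the 32 (12.5%), and in 3.69% of genes. Stretches of 80 bases outside annotated exons are shown for 4 members in the direction of transcription, with the motif in capitals: Lamp1 as the member with most matches, Atp6v1a and Lgmn as a pump subunit and the macrophage-enriched member that hold TCACGTG, and Ctsc for GAGGAAGT read on the other strand. They lie at chr8:13159081-13159160 (plus strand), chr16:44139349-44139428 (minus), chr12:102439100-102439179 (minus) and chr7:88277898-88277977 (plus) in the order given:
Lamp1: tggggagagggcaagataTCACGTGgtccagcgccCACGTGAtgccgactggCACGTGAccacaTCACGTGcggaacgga
Atp6v1a: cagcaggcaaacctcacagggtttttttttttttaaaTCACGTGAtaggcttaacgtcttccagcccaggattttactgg
Lgmn: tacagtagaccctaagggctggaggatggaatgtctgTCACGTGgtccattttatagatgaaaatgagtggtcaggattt
Ctsc: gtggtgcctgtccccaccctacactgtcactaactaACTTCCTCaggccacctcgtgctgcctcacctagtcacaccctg
Each stretch lies upstream of a RefSeq start. In the GENCODE annotation, those of Atp6v1a and Lgmn lie inside the gene, outside exons (genes at chr16:44085402-44139705 and chr12:102394084-102439813, both minus strand). Among the 8 members with TCACGTG, 3 were called higher in the knockout, with a median log2 difference of 0.36. Among the 24 members without it, 11 were called higher, with a median of 0.75. Over all genes tested, 6.5% were called higher. The 8 members with TCACGTG include 7 housekeeping and 0 restricted members, so this split is not separate from the classes. Whether the motif bears on the differences was not tested.

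All 39 members passed the filter on low counts, and each had a higher level in the knockout by its fitted log2 difference (knockout minus control). At a Benjamini-Hochberg adjusted p under 0.05 from edgeR's quasi-likelihood test over all genes, 17 members were called higher and 0 lower. Over all genes tested, 6.5% were called higher and 3.84% lower, and the median log2 difference was -0.003, against 0.58 for the members. A rise of at least 2-fold was called for 12 members, against 3.44% of genes tested. In 29 members every knockout library stood above every control library, against 18.9% of genes tested. The DESeq2 Wald test called 27 members higher, against 12.7% of the genes it tested. Of the 22 members not called, the lowest edgeR adjusted p were 0.0505 for Psap, 0.0515 for Man2b1 and 0.0561 for Grn.

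The classes differed in the size and share of these calls. All 5 macrophage-restricted members were called, with a median log2 difference of 2.59. In the macrophage-enriched class 5 of 7 were called, with a median of 0.87, and in the housekeeping class 7 of 27, with a median of 0.40. The smallest log2 difference among the restricted members, 1.42 for Acp5, was above the largest among the housekeeping members, 1.31 for Gla. The enriched members (0.27 to 1.42) and the housekeeping members (0.06 to 1.31) overlapped in range. The order of the 3 class medians was the same in each knockout library. Relative to the mean of the controls on the log2 scale, the median of the restricted members was 2.88, 3.08 and 1.39 in the knockout libraries (replicates 1, 2 and 3), against 0.42, -0.01 and -0.41 in the control libraries. The housekeeping median stood at 0.53, 0.52 and 0.09 in the knockout libraries, against 0.03, -0.03 and 0.01 in the control libraries. The class comparison was made by counts and medians, without a test. The classes were set with earlier results of these data known, so the contrast is not independent of them.

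**Figure D1:**
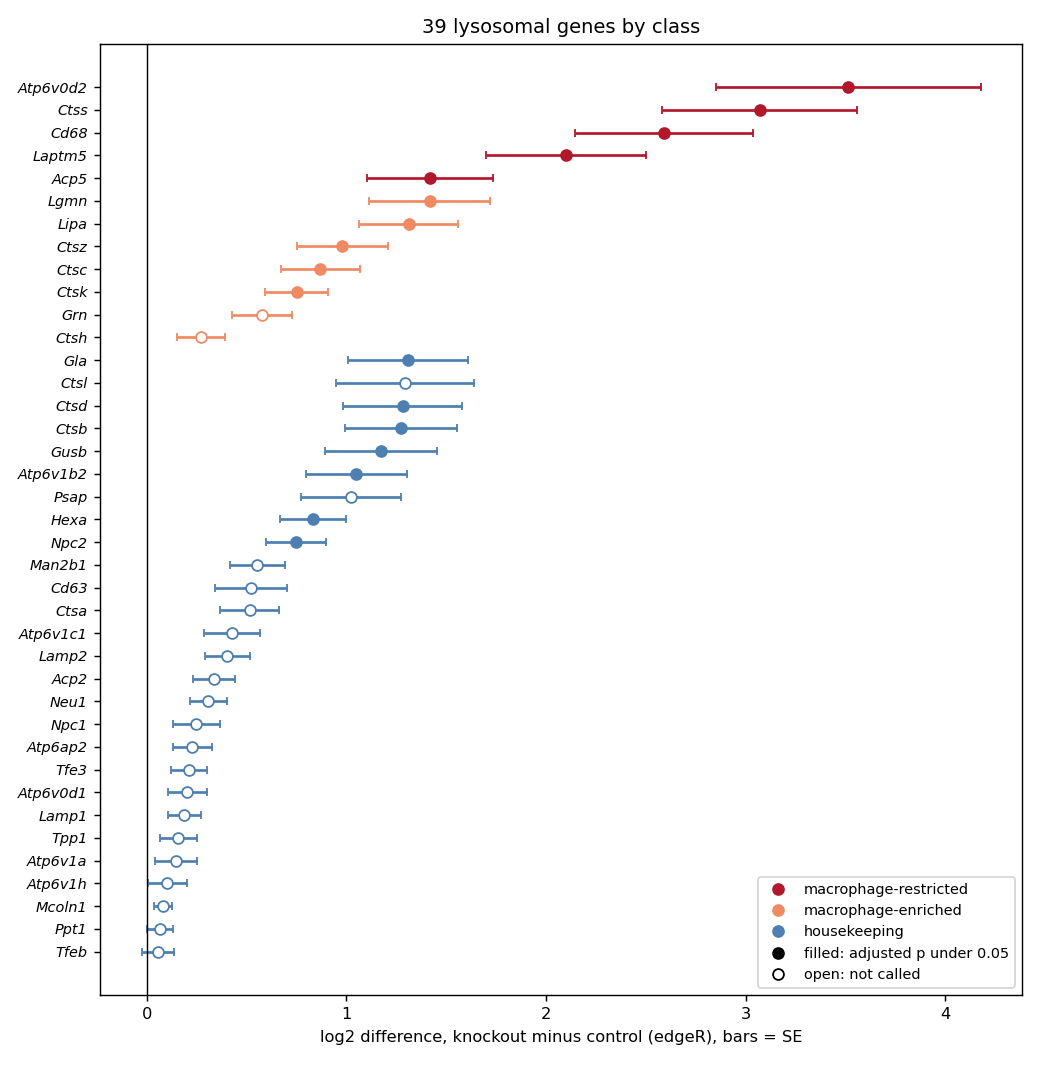
Log2 difference (knockout minus control, edgeR) of the 39 members by class, with bars of 1 SE; filled points passed an adjusted p of 0.05. The restricted members lie between 1.42 and 3.51, and the housekeeping members between 0.06 and 1.31.

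**Figure D2:**
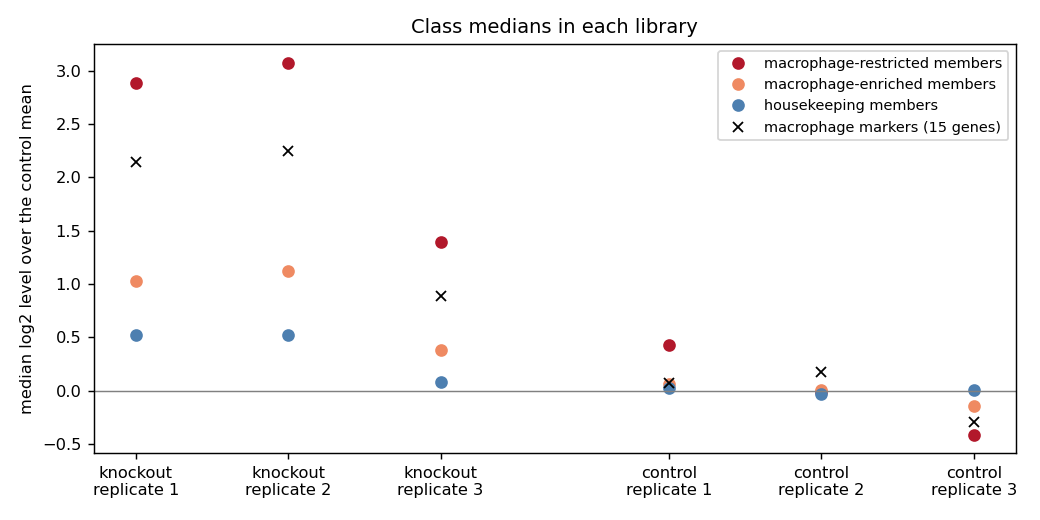
Median log2 level over the control mean in each library, for the 3 classes and for 15 macrophage markers. Knockout replicate 3 has a restricted median of 1.39 and a housekeeping median of 0.09, below the other knockout libraries in each.

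The number of calls changed with the libraries used. Without any 1 of knockout replicates 1 and 2 or control replicates 1, 2 and 3, edgeR called 0 of 39 members, with 24 to 27 members at an unadjusted p under 0.05 and lowest adjusted p between 0.0840 and 0.117. Those fits called only 0 to 52 genes higher among all genes tested (17638 to 17760), so the 0 is not particular to the members. Without knockout replicate 3 edgeR called 35 members higher, and 3051 of all 17720 genes tested. DESeq2 called 18 to 36 members higher when each library was left out in turn, and 1161 to 3101 of all genes. With the level of fat markers as a covariate, edgeR called 0 members, the lowest adjusted p was 0.0830, and the restricted median was 2.18. That fit called 152 of all 17392 genes tested higher.

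The macrophage markers moved with the restricted members. Of 15 markers, 13 were called higher, Mertk, an efferocytosis receptor, was called lower (log2 -0.26, edgeR adjusted p = 0.0443), and Ptprc was not called (log2 1.49, adjusted p = 0.0926). Their summed level was 1559 to 3976 CPM in the knockout libraries and 735 to 911 CPM in the control libraries. Csf1r, the receptor for the macrophage growth factor CSF-1, averaged 151 ± 37.7 CPM in knockout and 70.7 ± 10.8 CPM in control libraries (SD, n = 3 each; log2 1.10, edgeR adjusted p = 0.0325). Adgre1, which encodes the macrophage surface protein F4/80, averaged 68.9 ± 24.5 CPM in knockout and 25.1 ± 2.86 CPM in control libraries (log2 1.46, adjusted p = 0.0325). Their part in the members' differences was not tested. Fibroblast markers (3 of 6 called higher, summed 5219 to 7003 CPM in knockout and 3815 to 4411 CPM in control libraries) and smooth muscle markers (4 of 7 called lower, summed 21454 to 25442 CPM in knockout and 31710 to 36431 CPM in control libraries) were called in part. Neutrophil markers summed to 10.2 to 48.3 CPM in knockout and 4.07 to 9.92 CPM in control libraries, with 1 of 5 tested called higher by edgeR. All 5 had a positive difference, 3 were at an unadjusted p under 0.05, and DESeq2 called 2 higher. Their median log2 difference was 2.24, against 1.93 for the 15 macrophage markers. Of the other lists, 2 of 7 endothelial and 1 of 5 cartilage markers were called higher, and edgeR called 0 of 7 T cell markers (1 at an unadjusted p under 0.05; 1 called higher by DESeq2), 0 of 5 B cell markers (2; 1 called lower) and 0 of 5 mast cell markers (0; 0). Fat markers (0 of 8 called by edgeR and by DESeq2, 0 at an unadjusted p under 0.05) summed to 166, 267 and 966 CPM in knockout replicates 1, 2 and 3, against 1300.5, 734 and 341 CPM in the control libraries.

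Cathepsin S, the product of Ctss (ENSMUSG00000038642, chr3:95526786-95556403, plus strand, GRCm38), is a cysteine protease that stays active at neutral pH and cuts elastin and the invariant chain. Its level was 635, 749 and 214 CPM in knockout replicates 1, 2 and 3, against 82.8, 61.2 and 46.3 CPM in the control libraries. The groups did not overlap, and knockout replicate 3 stood lowest among the knockouts while still above every control. The log2 difference was 3.07 (SE 0.49, edgeR adjusted p = 0.0270), or 8.40-fold.

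Of the other 7 genes of cysteine cathepsins and legumain, 5 rose, each by a smaller factor. Legumain, encoded by Lgmn (chr12:102394084-102439813, minus strand), is an asparaginyl endopeptidase that processes cathepsins; it stood at 432, 478 and 201 CPM in knockout and 144, 139 and 132 CPM in control libraries (log2 1.42, SE 0.30, edgeR adjusted p = 0.0396). Ctsb, a broadly expressed endopeptidase, stood at 3021, 3333 and 1518 CPM in knockout and 1170, 1057 and 1033 CPM in control libraries (log2 1.27, SE 0.28, adjusted p = 0.0414). In both genes the groups did not overlap and knockout replicate 3 lay nearer to the controls than to the other knockouts. Ctsk, a collagen-degrading cathepsin, was placed in the macrophage-enriched class but is also made by osteoclasts and fibroblasts. It stood at 99.9, 115 and 77.1 CPM in knockout and 64.9, 57.4 and 51.4 CPM in control libraries (log2 0.75, adjusted p = 0.0381). Ctsc, which activates granule serine proteases, stood at 195, 209 and 123 CPM in knockout and 97.4, 104 and 86.4 CPM in control libraries (log2 0.87, adjusted p = 0.0438). Ctsz, a carboxypeptidase, stood at 352, 377 and 205 CPM in knockout and 174, 161 and 139 CPM in control libraries (log2 0.98, adjusted p = 0.0456). Each of these 3 genes had every knockout library above every control, as did 18.9% of all genes tested.

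Ctsl and Ctsh were not called. Ctsl, an endopeptidase of nearly all cells, had a fitted log2 difference of 1.29, close to that of Ctsb, but a larger error (SE 0.35, edgeR adjusted p = 0.0599). It stood at 1142, 1251 and 465 CPM in knockout and 414, 380 and 372 CPM in control libraries, so that knockout replicate 3 was close to the highest control. Ctsh, an aminopeptidase, stood at 383, 384 and 320 CPM in knockout and 267, 287 and 345 CPM in control libraries (log2 0.27, adjusted p = 0.179), and control replicate 3 lay above knockout replicate 3. Both genes are among the 6 members with a seed match. Of the others, Lipa and Atp6v0d2 were called higher, and Acp2 and Atp6v1a were not called.

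Among the other peptidases, Ctsd, the main aspartic protease of the lysosome, rose and the other 2 did not pass. Ctsd stood at 2328, 2557 and 1107 CPM in knockout and 897, 786 and 782 CPM in control libraries (log2 1.28, SE 0.30, edgeR adjusted p = 0.0454), with no overlap. Ctsa, a carboxypeptidase that protects β-galactosidase and neuraminidase, averaged 294 ± 59.8 CPM in knockout and 206 ± 1.65 CPM in control libraries (log2 0.52, adjusted p = 0.0694). Tpp1, a tripeptidyl peptidase, averaged 177 ± 18.7 CPM in knockout and 159 ± 10.9 CPM in control libraries (log2 0.16, adjusted p = 0.307).

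Of the 5 glycosidases, which trim sugars from glycolipids and glycoproteins, 3 rose. Hexa, the α subunit of β-hexosaminidase, stood at 265, 291 and 181 CPM in knockout and 139, 139 and 136 CPM in control libraries (log2 0.83, SE 0.17, edgeR adjusted p = 0.0351). Gla, α-galactosidase A, was low, at 33.9, 36 and 15.8 CPM in knockout and 12.5, 10.5 and 11.6 CPM in control libraries (log2 1.31, SE 0.30, adjusted p = 0.0443). Gusb, β-glucuronidase, stood at 182, 203 and 89.7 CPM in knockout and 71.5, 68.4 and 70.6 CPM in control libraries (log2 1.17, SE 0.28, adjusted p = 0.0487). In these 3 every knockout library stood above every control, as in 18.9% of all genes tested. The spread lay mostly in the knockouts: the SD of Gusb was 60.3 CPM in knockout and 1.61 CPM in control libraries. The α-mannosidase gene Man2b1 (log2 0.55, adjusted p = 0.0515) and the neuraminidase gene Neu1 (log2 0.31, adjusted p = 0.0805) did not pass.

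In the group that handles lipids and phosphate esters, Lipa, Npc2 and Acp5 rose. Lipa (chr19:34492318-34527474, minus strand) encodes lysosomal acid lipase, which hydrolyses the cholesteryl esters of engulfed lipoproteins. It stood at 191, 216 and 112 CPM in knockout and 80.2, 67.8 and 60.6 CPM in control libraries (log2 1.31, SE 0.25, edgeR adjusted p = 0.0325). Npc2, which passes the freed cholesterol to the membrane transporter Npc1, stood at 300.3, 331 and 225 CPM in knockout and 183, 174 and 153 CPM in control libraries (log2 0.75, SE 0.15, adjusted p = 0.0347). For Lipa and Npc2 the lowest knockout was above the highest control. Npc1 itself was not called, at 81.3 ± 13.3 CPM in knockout and 68.5 ± 1.34 CPM in control libraries (SD, n = 3 each; log2 0.25, adjusted p = 0.212).

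Acp5 (ENSMUSG00000001348, chr9:22126727-22135711, minus strand), the tartrate-resistant acid phosphatase of macrophages and osteoclasts, stood at 67.6, 85.9 and 46.3 CPM in knockout and 33.5, 25.2 and 16.1 CPM in control libraries. It had the smallest log2 difference of the restricted members, 1.42 (SE 0.32, edgeR adjusted p = 0.0421), and no overlap. Psap, the precursor of the saposins that present lipids to hydrolases, was just outside the threshold: it stood at 3099, 3350 and 1681 CPM in knockout and 1441, 1301 and 1257 CPM in control libraries (log2 1.02, SE 0.25, adjusted p = 0.0505). The lysosomal acid phosphatase gene Acp2 (log2 0.34, adjusted p = 0.0837) did not pass. Ppt1, which removes palmitate from proteins, stood at 157, 146 and 138 CPM in knockout and 138, 137 and 146 CPM in control libraries; these groups overlapped and the log2 difference was 0.07 (SE 0.06, adjusted p = 0.523).

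Of the 6 membrane proteins, the 2 restricted ones rose. Cd68 (ENSMUSG00000018774, chr11:69664213-69666153, minus strand), a heavily glycosylated protein of macrophage lysosomes, stood at 131, 150.3 and 46.8 CPM in knockout and 23.2, 17.2 and 14.1 CPM in control libraries (log2 2.59, SE 0.45, edgeR adjusted p = 0.0304). Laptm5 (ENSMUSG00000028581, chr4:130913125-130936141, plus strand), a protein of haematopoietic lysosomes that controls receptor turnover, stood at 184, 219 and 75.5 CPM in knockout and 41.4, 43.0 and 27.5 CPM in control libraries (log2 2.10, SE 0.40, adjusted p = 0.0328). In both, knockout replicate 3 was at less than 50% of the other knockouts and above every control. The structural membrane proteins of all lysosomes were closer between the groups: Lamp1 averaged 739 ± 67.5 CPM in knockout and 648 ± 10.1 CPM in control libraries (log2 0.19, adjusted p = 0.173). Lamp2 (log2 0.40, adjusted p = 0.0682) and Cd63, also a protein of exosomes (log2 0.52, adjusted p = 0.106), did not pass. The calcium channel gene Mcoln1 stood at 40.7, 40.4 and 39.1 CPM in knockout and 37.3, 37.6 and 38.7 CPM in control libraries (log2 0.08, SE 0.05, adjusted p = 0.283), and its log2 difference was -0.03 in fits on the TPM table.

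**Figure D3:**
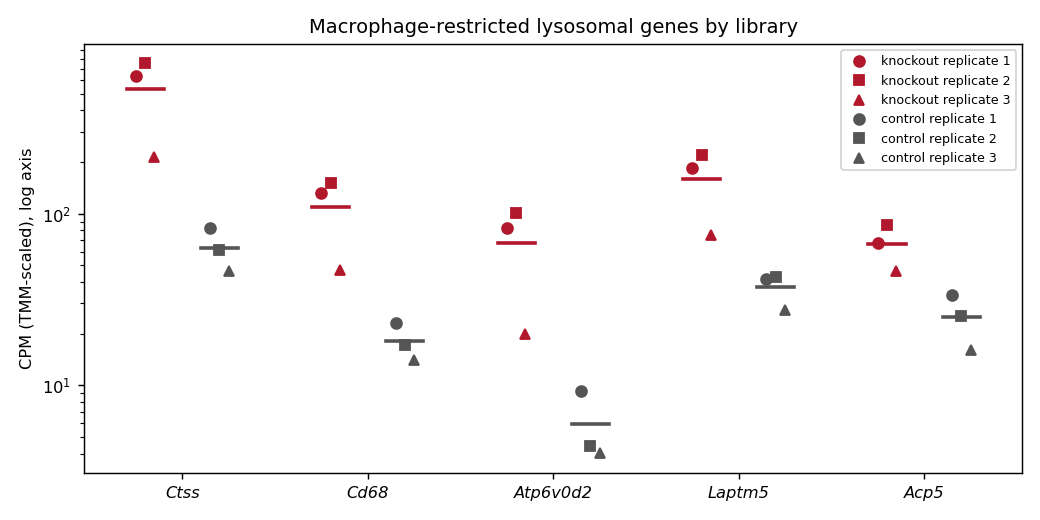
CPM (log axis) of the 5 macrophage-restricted members in each library, with a line at each group's mean. In each gene the 3 knockout libraries lie above the 3 control libraries, and knockout replicate 3 is the lowest knockout.

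The proton pump members include 2 forms of 1 subunit. Atp6v0d2 (ENSMUSG00000028238, chr4:19876841-19922605, minus strand) encodes the d2 form of the stalk subunit, known from macrophages and osteoclasts, and Atp6v0d1 encodes the form made in most cells. Atp6v0d2 stood at 82.7, 100.4 and 19.8 CPM in knockout and 9.30, 4.44 and 4.01 CPM in control libraries, with no overlap. Its log2 difference of 3.51 (SE 0.66, edgeR adjusted p = 0.0325), or 11.4-fold, was the largest among the members. Atp6v0d1 stood at 83.0, 84.6 and 66.3 CPM in knockout and 66.4, 69.5 and 67.2 CPM in control libraries (log2 0.20, SE 0.10, adjusted p = 0.212), and knockout replicate 3 lay below all controls. On the deposited TPM scale, which corrects for transcript length, d2 was 57.3%, 67.7% and 17.0% of d1 in the knockout libraries and 7.81%, 3.62% and 3.31% in the control libraries.

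Of the remaining pump subunits only Atp6v1b2, the B2 form of the ATP-binding head, was called among the members: it stood at 150.4, 173 and 85.0 CPM in knockout and 73.8, 64.1 and 59.5 CPM in control libraries (log2 1.05, SE 0.25, edgeR adjusted p = 0.0488). Its partner in the head, Atp6v1a, averaged 171 ± 22.9 CPM in knockout and 154 ± 7.11 CPM in control libraries (log2 0.15, adjusted p = 0.387). Atp6v1h, a regulatory head subunit, stood at 71.5, 72.2 and 57.0 CPM in knockout and 64.9, 60.0 and 62.0 CPM in control libraries, where knockout replicate 3 was below every control (log2 0.10, adjusted p = 0.526). The stalk gene Atp6v1c1 (log2 0.43, adjusted p = 0.0951) has a second row of the same symbol with identical values, so its reads are split and its printed level is that of 1 row. Atp6ap2, the prorenin receptor and a pump accessory protein, had a log2 difference of 0.23 (adjusted p = 0.173).

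Osteoclasts also make Acp5, Atp6v0d2 and Ctsk, so their markers were read beside these genes. Of the 7 osteoclast markers that passed the low-count filter, edgeR called 0 higher, with 3 at an unadjusted p under 0.05, and Itgb3 (log2 -0.55, edgeR adjusted p = 0.0328) and Tnfrsf11a (log2 -0.76, adjusted p = 0.0068) were called lower. All 8 markers together summed to 217 to 240 CPM in knockout and 299 to 338 CPM in control libraries. Most of that sum was Itgb3, with a mean of 160 CPM in knockout and 234 CPM in control libraries. Of the 7 tested, 4 had a positive log2 difference, among them Ocstamp (0.49, edgeR adjusted p = 0.168) and Mmp9 (0.34, adjusted p = 0.395). Of the defining markers, Calcr was at 0 in 5 of the 6 libraries, and Dcstamp was between 0.776 and 1.44 CPM in knockout and between 0.480 and 0.680 CPM in control libraries (log2 1.01, edgeR adjusted p = 0.0689, called higher by DESeq2).

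EdgeR called none of the 3 regulators, and DESeq2 called 1 of them, Grn, higher. Tfeb stood at 32.7, 35.9 and 30.6 CPM in knockout and 29.7, 32.3 and 33.3 CPM in control libraries, with overlapping groups and the smallest log2 difference of the members, 0.06 (SE 0.08, edgeR adjusted p = 0.668). Without knockout replicate 2 that difference was -0.01. Tfe3 averaged 48.1 ± 5.70 CPM in knockout and 41.5 ± 1.26 CPM in control libraries (log2 0.21, adjusted p = 0.174). Grn, the precursor of granulins and a macrophage-enriched member, stood at 359, 380 and 253 CPM in knockout and 225, 225 and 215 CPM in control libraries, without overlap but outside the threshold (log2 0.58, SE 0.15, adjusted p = 0.0561).

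Knockout replicate 3 was placed against both groups, class by class. Its place was expressed as the percent of the way, on the log2 scale, between the mean of the controls (0%) and the mean of knockout replicates 1 and 2 (100%). The median was 46.7% for the restricted, 31.6% for the enriched and 19.1% for the housekeeping members, and 45.1% for the 13 called macrophage markers. Over the 17 called members it ranged between 24.4% and 57.1%, and 7 housekeeping members were below 0%, where this library stood below the mean of the controls. A call itself favours genes in which this library stood above the controls, so the values of called members and markers are partly set by it. Where knockout replicates 1 and 2 were close to the controls, as in Tfeb (0.04 and 0.18 on the log2 scale), the percent is unstable. The order of the classes in this measure is therefore not read as a result.

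Levels of different members were compared on the deposited TPM scale. Together the 39 members made up 1.35%, 1.44% and 0.772% of all TPM in the knockout libraries, against 0.623%, 0.611% and 0.628% in the control libraries. Of the rise in their summed TPM, the housekeeping class gave 71.1%, the restricted class 16.5% and the enriched class 12.4%. Nearly all cells express the housekeeping genes, so the 71.1% does not tell which cells gave the rise. The housekeeping class was also the largest at the start. In control libraries it held 4882 of the members' 6150 TPM, the restricted class 180 and the enriched class 1087. Ctsd, Psap and Ctsb alone gave 46.4%, and Ctss gave 10.9%. Psap and Ctsd were ranks 1 and 2 among the members in both groups. Ctss was rank 6 in the knockout and rank 16 in the control group, Cd68 rank 15 in the knockout and rank 32 in the control group, and Atp6v0d2 rank 32 in the knockout and rank 39, the lowest, in the control group.

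**Figure D4:**
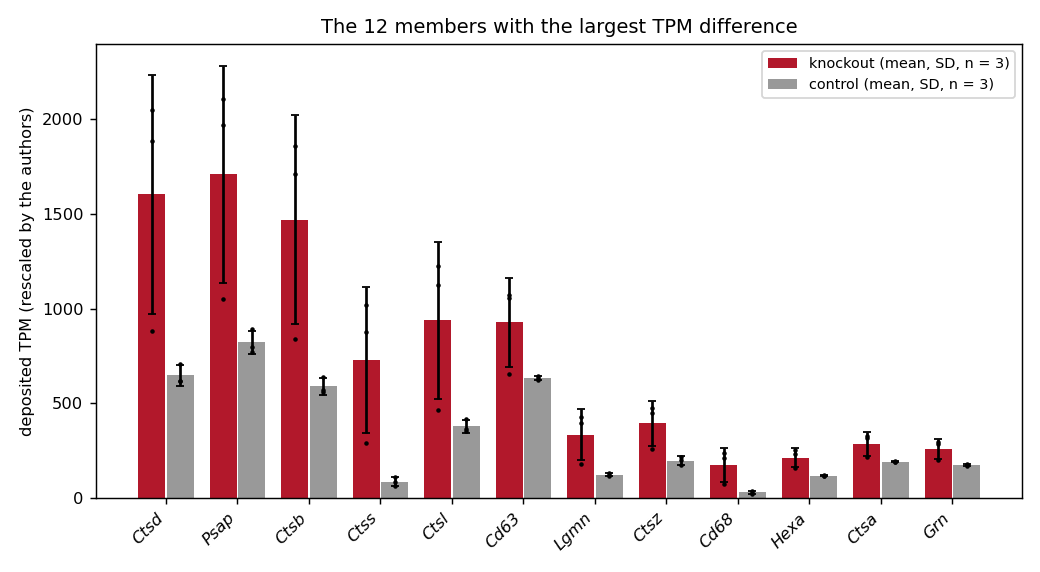
Deposited TPM of the 12 members with the largest difference in TPM, as bars of the group mean with SD and points for the 3 libraries of each group. Ctsd averages 1604 TPM in knockout and 647 TPM in control libraries, and Ctss 729 TPM in knockout and 85.3 TPM in control libraries.

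Each member was also set against the macrophage markers within its own library, as its log2 CPM minus the mean log2 CPM of the 15 markers. That mean was 6.35 in knockout and 4.71 in control libraries, a difference of 1.64. Relative to it, 4 of the 39 members, all of them restricted, were higher in the knockout: Atp6v0d2 by 1.67, Ctss by 1.28, Cd68 by 0.81 and Laptm5 by 0.34. The markers themselves varied, with fitted log2 differences from -0.26 (Mertk) to 2.48 (Fcgr1). Laptm5 (2.10) lay within that range, while Cd68 (2.59), Ctss (3.07) and Atp6v0d2 (3.51) lay above it. Acp5 had a difference of -0.21, the enriched members lay between -1.37 (Ctsh) and -0.32 (Lgmn), and the housekeeping members between -1.59 (Tfeb) and -0.43 (Gla). In single libraries the relative level of Ctss was 2.68, 2.75 and 2.12 in knockout replicates 1, 2 and 3 and 1.57, 1.02 and 1.14 in the control libraries, with no overlap. The count depended on the markers used: against Csf1r and Adgre1 alone, 7 members were higher in the knockout, the 5 restricted members, with Acp5 at 0.20, and the enriched members Lgmn (0.09) and Lipa (0.03). Against that pair, the class medians were 1.22, -0.40 and -0.84 for restricted, enriched and housekeeping members, in place of 0.81, -0.81 and -1.25 against all 15 markers. These are values without a test, and a member made by several cell types is diluted in such a ratio.

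**Figure D5:**
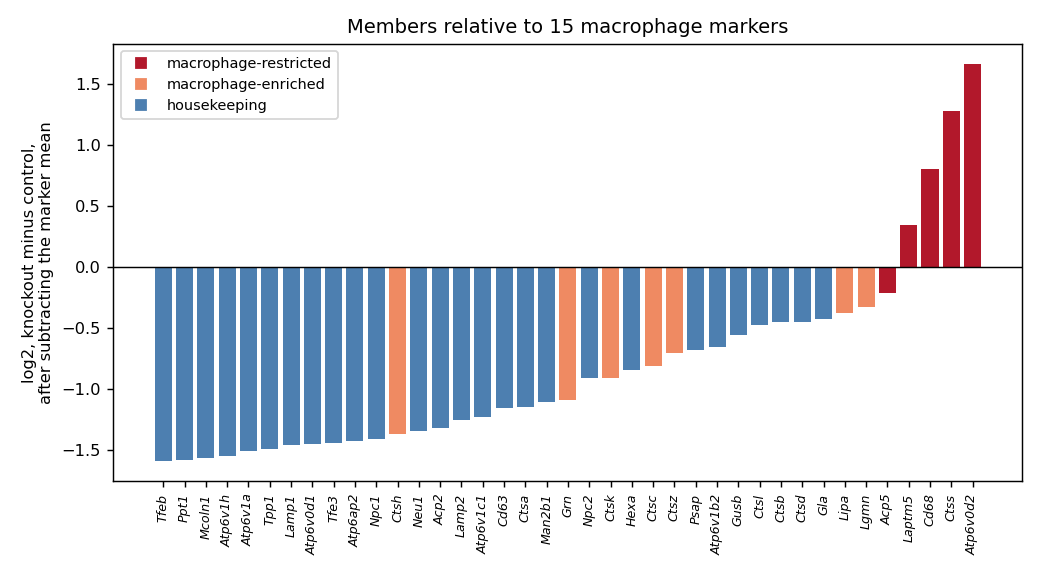
Knockout minus control difference in log2 CPM of each member after the mean of 15 macrophage markers was subtracted in each library, ordered by size and coloured by class. Atp6v0d2 (1.67), Ctss (1.28), Cd68 (0.81) and Laptm5 (0.34) lie above 0 and the other 35 members below it.

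Lysosomal genes outside the 39 members were read from lists of the same pathway, in the same edgeR fit. Over all genes tested, that fit called 6.5% higher and 3.84% lower. Of 32 other hydrolases and activators, 11 (34.4%) were called higher and 0 lower, with a median log2 difference of 0.28. A positive difference was fitted for 25 of the 32. DESeq2 called 16 higher and 1 lower, Ids (log2 -0.30, DESeq2 adjusted p = 0.0374), against 12.7% of the genes it tested called higher. Among the hydrolases of lowest edgeR p were the carboxypeptidase gene Prcp (log2 0.69, edgeR adjusted p = 0.0304) and the cysteine cathepsin gene Ctso (log2 0.34, adjusted p = 0.0322). Prcp averaged 55.8 ± 8.98 CPM in knockout and 34.6 ± 1.42 CPM in control libraries (SD, n = 3 each).

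Of 23 other membrane proteins tested, edgeR called 6 (26.1%, against 6.5% of all genes) higher and 0 lower, with a median log2 difference of 0.20. A positive difference was fitted for 16 of the 23. DESeq2 called 8 higher and 2 lower, against 12.7% of the genes it tested called higher. Those called lower were Laptm4b (log2 -0.24, DESeq2 adjusted p = 0.0221) and Abca2 (log2 -0.29, adjusted p = 0.0103). The 3 of lowest edgeR p had larger differences than any housekeeping member. Mcoln3, a channel related to Mcoln1, was at 6.79, 8.58 and 1.84 CPM in knockout and 0.472, 0.346 and 0.114 CPM in control libraries (log2 4.20, SE 0.72, edgeR adjusted p = 0.0300). Slc15a3, a peptide and histidine transporter, stood at 65.6, 79.9 and 17.2 CPM in knockout and 8.34, 6.05 and 3.77 CPM in control libraries (log2 3.16, adjusted p = 0.0328). Slc11a1, the phagosomal metal transporter NRAMP1 of macrophages, averaged 52.1 ± 23.3 CPM in knockout and 13.2 ± 2.31 CPM in control libraries (log2 1.98, adjusted p = 0.0322).

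Of 16 other pump subunits tested, 1 (6.25%) was called higher, close to the 6.5% of all genes tested. It was Tcirg1, the a3 form found in osteoclasts and immune cells, at 143, 162 and 83.0 CPM in knockout and 55.8, 54.4 and 50.1 CPM in control libraries (log2 1.28, SE 0.23, edgeR adjusted p = 0.0322). The median log2 difference of these 16 was 0.23. Of 19 genes of enzyme sorting and of MiT and mTORC1 control, edgeR called 0, with a median of 0.12, while 7 were at an unadjusted p under 0.05. Of these 7, Sort1 and Mtor were lower in the knockout. DESeq2 called 5 of the 19 higher and 0 lower, and 14 of the 19 had a positive edgeR difference. The lowest p among them belonged to Tfec, a macrophage member of the Tfeb family, at 5.07, 6.06 and 1.89 CPM in knockout and 1.25, 1.5 and 0.837 CPM in control libraries (log2 1.86, adjusted p = 0.0506), and to Gnptab, which tags hydrolases for the lysosome (log2 0.39, adjusted p = 0.0721). Of 5 cathepsin inhibitors tested, edgeR called 0, with a median of 0.73, while 1 was at an unadjusted p under 0.05 and DESeq2 called 1 higher. Cstb, the cytosolic inhibitor cystatin B, averaged 65.9 ± 19.6 CPM in knockout and 36.8 ± 3.03 CPM in control libraries (log2 0.84, adjusted p = 0.0589). Csta1, the next by p, was at the edge of detection (0.233 ± 0.0388 CPM in knockout and 0.140 ± 0.0287 CPM in control libraries; log2 0.73, adjusted p = 0.170).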

How the data were processed

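RNA of 6 mouse libraries was analysed, grouped by the genotype in the sample labels. The submitters' processing notes list GRCm38 and the tools kallisto 0.46.2, FastQC 0.11.8 and Trim Galore 0.6.5; kallisto shares reads between similar transcripts, and strand is not given in the sources used here. Mean RNA integrity was 7.0, per the labels' protocols. The deposited estimated counts are not whole: the value of 1 read was 0.9004 to 1.0685 by library, and what set it is not given in the sources used here. The deposited TPM are used as a signal, since the columns sum to 955527 to 1034723.

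Estimated counts were rounded, filtered (filterByExpr, minimum count 10), TMM-scaled and tested with edgeR 4.0.16 in R 4.3.3 with Benjamini-Hochberg adjustment over all genes; SE is the log2 difference over the root of F. The fit was tested on simulated data. The lowest deposited count of a member was 211. Alternatives were DESeq2 1.42.0, limma 3.58.1, other scalings and filters, a replicate block, a fat covariate and omission of libraries; undoing the value of 1 read and summing identical rows were chosen after seeing the data. Members, classes, lists and the naming rule (all restricted members, called members by p, extremes among the uncalled, the lowest p in each list) were chosen with earlier results of these data known. A planned protein comparison was not run, since no protein table was used here. One gene that the naming rule picks is not reported here.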

Additional observations from a re-analysis of the deposited data

How the results depend on the processing

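With all 6 libraries, edgeR called 17 members higher (5 restricted, 5 enriched, 7 housekeeping). DESeq2 called 27 (16 housekeeping), limma-voom 7 (3, 2 and 2), limma on log2(TPM + 1) 4 (2, 1 and 1) and on log2(TPM + 0.1) 5 (3, 1 and 1). The fat covariate left 0 in each class. Leaving out 1 library in edgeR gave 0 to 35 members (housekeeping 0 to 24, restricted 0 to 5, enriched 0 to 6), and in DESeq2 18 to 36 (housekeeping 8 to 24, with 11 without control replicate 1). Other scalings and filters, the undone read value and summed identical rows gave 17 to 21 members, and no setting called a member lower. The class medians kept their order in all settings: restricted 2.18 to 2.95, enriched 0.69 to 1.07, housekeeping 0.28 to 0.52.

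Replicate numbers did not pair the libraries (correlations of same-numbered deviations -0.09, 0.23 and 0.08). The fit with the replicate number as a block called 14 members, 4 of them housekeeping. Over all 17392 genes tested that fit called 1295 higher, against 1131 without the block.

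Signs turned for 2 members: Mcoln1 was -0.031 on both TPM scales, and Tfeb was -0.0038 with the fat covariate and, without knockout replicate 2, -0.0074 in edgeR and -0.015 in DESeq2; leaving out 1 library in edgeR gave Tfeb -0.0074 to 0.108. Over all genes, 1131 were called higher and 667 lower. DESeq2 called 2083 and 1312, limma-voom 559 and 514, limma on log2(TPM + 1) 447 and 252 and on log2(TPM + 0.1) 539 and 280, the fat covariate 152 and 139, and edgeR without knockout replicate 3 3051 and 2028. Without another single library edgeR called at most 52 higher and 22 lower. Library-size scaling, which moved the median of all genes to 0.04, called 1476 higher and 447 lower. The causes, and the effect of depth on these counts, were not tested. Against Csf1r and Adgre1 in place of 15 macrophage markers, Acp5, Lgmn and Lipa turned positive in relative level.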
